A study of Mus musculus with 10 samples.

Results

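The genes described here serve acid secretion and lysosomal resorption of bone: the subunits of the vacuolar proton pump, the ion transporters that work beside it, the enzymes released onto bone, and general lysosomal genes. They were taken from the deposited table by gene symbol, and 35 of its 27179 genes are members. All 35 were found and all 35 passed the filter on low values. Of them, 8 were classed as enriched in osteoclasts (Tcirg1, Clcn7, Ostm1, Car2, Ctsk, Acp5, Snx10 and Slc37a2), and the other 27, which most cells use, were classed as ubiquitous. The libraries came from whole pulverized femurs of 10 mice aged 3 or 4 weeks, an age that is not given per mouse. The mutant mice were heterozygous for the N330I allele of Fgfr1, a fibroblast growth factor receptor gene (Fgfr1+/N330I, 3 females and 2 labelled males). The WT mice were littermates (3 females and 2 males). Bulk RNA of a whole bone mixes its cell types, and the sources used here name no other allele or treatment.

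An osteoclast seals off a patch of bone, folds the membrane facing it into a ruffled border, and pumps protons through it to dissolve mineral. The vacuolar ATPase that does this has a membrane sector, V0, through which protons pass, and a cytosolic sector, V1, which splits ATP. Most of its subunits serve every lysosome. A few partners, such as the a3 subunit made by Tcirg1 and the protease cathepsin K, are abundant in osteoclasts, and loss of several of them gives osteopetrosis, a disease of dense bone, in mice or people.

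Every value below is a normalized count: the reads of a gene divided by the library's DESeq2 size factor and rounded. Library totals ran from 24904802 to 39606608 normalized counts, or an estimated 12.9 to 30.6 M reads outside the ribosomal gene Rn45s, which took 28.8% of female WT 3 and at most 0.428% of any other library. Libraries of 1 genotype also differed from each other, and labelled sex coincides with a series of library names. The library labelled male mutant 2 held 7972 normalized counts of the X-inactivation gene Xist and 4 of the Y-linked gene Ddx3y, against 14 to 48 of Xist and 1558 to 1936 of Ddx3y in the other 3 libraries labelled male. The 6 female libraries held 14007 to 19641 of Xist and 0 to 4 of Ddx3y. Male WT 1 differed from the rest by gene length: its deviation from the mean of 10 libraries had a slope of -1.62 (log2 per log10 exon bases) over all genes. The slopes of the others lay between -0.48 and 0.45. Fgfr1 itself, whose counts do not separate the alleles, had 8856, 12560, 12990, 9132 and 12086 in mutant femurs and 11326, 8610, 8848, 3861 and 7767 in WT femurs (log2 difference 0.52 ± 0.23 SE, limma, adjusted p = 0.783). Bone markers were abundant as a sum: 8 osteoblast and osteocyte markers together had 278922 to 531695 in mutant femurs and 84730 to 1001389 in WT femurs. Most of that was Col1a1, with 265798 to 467003 in mutant and 68115 to 826152 in WT femurs. Others on the list were low, such as Bglap (39 to 273 and 15 to 91) and Sost (0 to 56 and 0 to 96). Markers of blood-forming marrow were near 0, with sums of 4 to 14 in mutant and 24 to 71 in WT femurs for erythroid genes, and of 9 to 18 and 10 to 28 for B cell genes.

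Taken as a group, the members made up 2.30% to 3.13% of all normalized counts outside Rn45s in mutant femurs and 2.12% to 4.07% in WT femurs. Most of that was general lysosomal RNA: Ctsb, Ctsd, Ctsl and Lamp1 together held 53.5% to 73.2% of the members' counts in mutant femurs and 71.5% to 79.5% in WT femurs. Per kilobase of exon, the mean over 10 libraries was highest for Ctsd (113641 normalized counts per kb), followed by Ctsb (46610), Ctsl (29080), Ctsk (21454), Lamp1 (19202), Acp5 (15961) and Ctsz (13622). The lowest levels per kb were those of Tfeb (224), Car2 (177), Mitf (146) and Atp6v0e2 (110). The lowest value of any member was 99, for Atp6v0e2 in female mutant 3 (an estimated 98 reads) and in male WT 2, and Car2 in female WT 3 rested on an estimated 46 reads.

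The main comparison asked whether these genes differed between mutant and WT femurs, with labelled sex as a covariate. No member passed the test, and neither did any other gene: limma called 0 of 14362 genes at an adjusted p below 0.05 (0% of genes tested), with 0.237 as the lowest adjusted value. Without adjustment, 3 of the 35 members had p below 0.05, namely Ctsk, Acp5 and Snx10, each with the higher mean in mutant femurs, where 907 genes (6.32% of those tested) did. The 2 classes of members had medians of opposite sign. The osteoclast-enriched members had a median log2 difference of 0.25, with 7 of 8 above 0. The ubiquitous members had one of -0.16, with 7 above 0 and 20 below, beside a median of -0.01 and 48.2% above 0 among all genes tested. Without male mutant 1 the osteoclast-enriched median was 0.13, and without the library labelled male mutant 2 it was 0.39. For the ubiquitous members, leaving out male WT 1 gave a median of -0.01, and leaving out labelled male mutant 2 gave -0.09; quantile normalization gave -0.08. Marker lists of other tissues also lay on 1 side of 0 by genotype: 8 of 8 skeletal muscle markers were above 0 (median 1.23, summed level 605 to 6724 in mutant and 476 to 2176 in WT femurs). Of the endothelial markers, 6 of 6 were below 0 (median -1.19, summed level 1325 to 20852 in mutant and 11897 to 24908 in WT femurs). None of these passed the test, and their part in the members' differences was not tested.

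**Figure D1:**
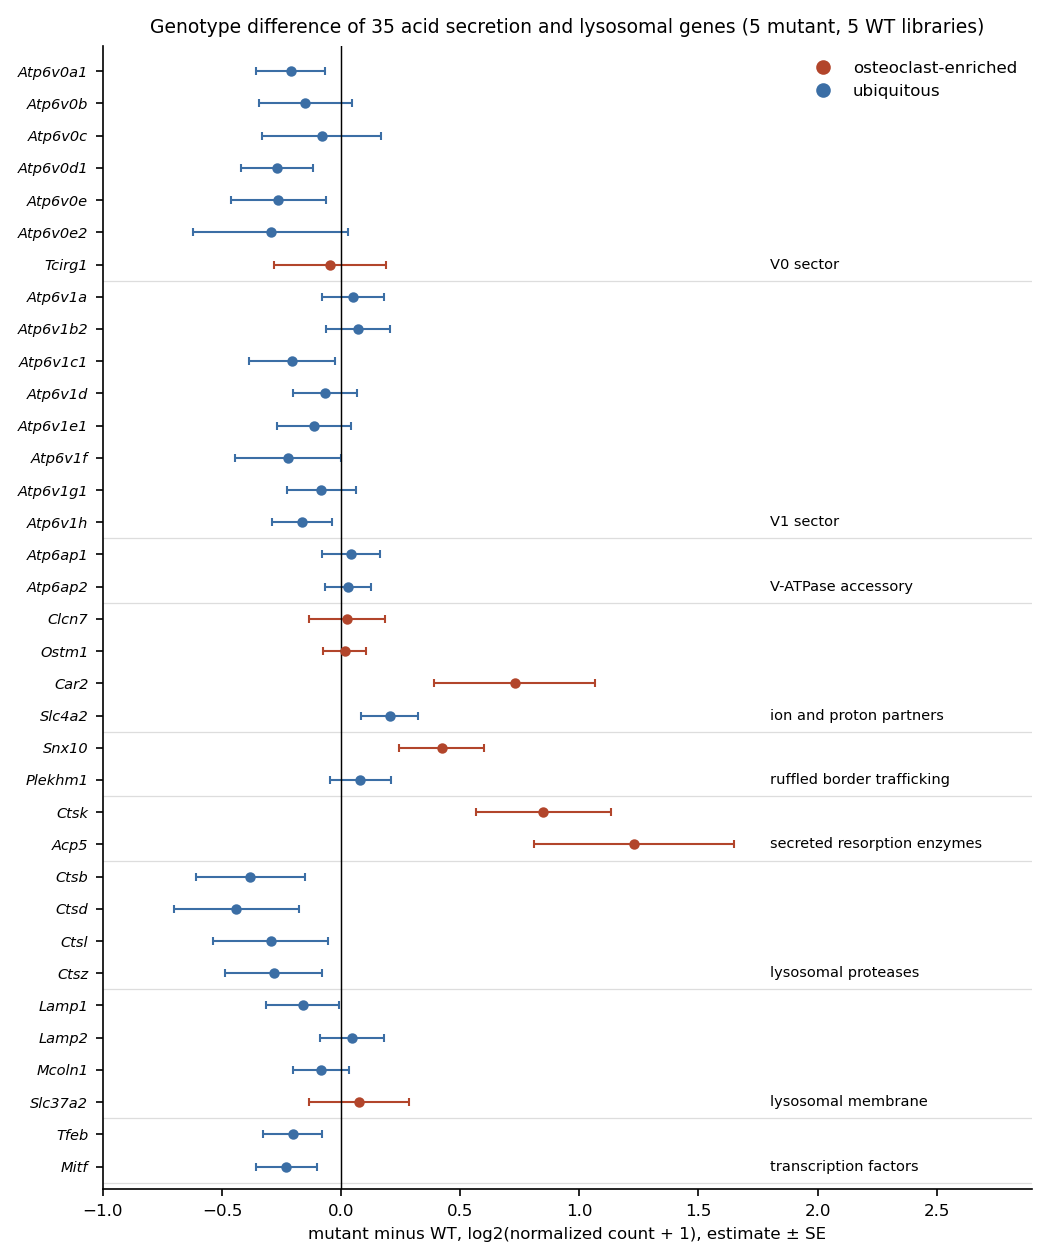
Log2 difference between mutant and WT femurs (x axis, log2 of normalized count + 1, estimate ± SE of the limma fit on 10 libraries) for each of the 35 members, grouped by role down the page; red points are osteoclast-enriched and blue points ubiquitous members. Acp5, Ctsk, Car2 and Snx10 lie farthest right at 1.23, 0.85, 0.73 and 0.42, the 4 lysosomal proteases lie between -0.44 and -0.28, and no member passed the adjusted threshold.

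Ctsk and Acp5 make the enzymes that osteoclasts release onto bone: cathepsin K, which degrades collagen, and tartrate-resistant acid phosphatase. In mutant femurs, Ctsk had 31101, 22347 and 23425 normalized counts in the females and 101037 and 35570 in the labelled males. In WT femurs, it had 19884, 16136 and 13178 in the females and 21797 and 33472 in the males. The mutant libraries were above the WT libraries within each labelled sex, but over all mice the groups overlapped, because male WT 2 was above all 3 mutant females. The means were 42696 ± 33069 in mutant and 20893 ± 7782 in WT femurs (SD, n = 5 each), and the log2 difference was 0.85 ± 0.28 SE (limma, adjusted p = 0.709). Acp5 had 24175, 18415 and 13460 in mutant females and 105693 and 26535 in labelled mutant males, against 15498, 6146 and 6916 in WT females and 12744 and 28352 in WT males. It had the widest range of any member, 17.2-fold over the 10 libraries, with male mutant 1 far above the rest and the groups overlapping in both sexes. Its log2 difference was 1.23 ± 0.42 SE (limma, adjusted p = 0.710), and without male mutant 1 and male WT 1 together, a choice made after the values were seen, it was 0.77, and that of Ctsk was 0.51.

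Snx10, a sorting nexin needed to form the ruffled border, had 2066, 1523, 1627, 4420 and 2351 normalized counts in mutant femurs (females 1 to 3, then labelled males 1 and 2, an order kept below) and 1491, 1390, 1160, 1980 and 2584 in WT femurs. All 3 mutant females were above all 3 WT females, male mutant 1 was the highest library, and the labelled males overlapped. The log2 difference was 0.42 ± 0.18 SE (limma, adjusted p = 0.773; 0.27 without male mutant 1). Its trafficking partner in the list, Plekhm1, an adaptor for the fusion of lysosomes, had a log2 difference of 0.08 ± 0.13 SE (limma, adjusted p = 0.877), with 1888 to 3190 normalized counts in mutant and 1689 to 3202 in WT femurs.

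The ion and proton partners supply the pump and balance its charge. Car2, carbonic anhydrase 2, which makes protons from carbon dioxide, had 132, 240, 162, 1102 and 453 normalized counts in mutant femurs and 154, 133, 101, 197 and 498 in WT femurs. Its values were highest in male mutant 1, and the other 9 libraries of both genotypes overlapped (log2 difference 0.73 ± 0.34 SE, limma, adjusted p = 0.786; 0.46 without either male mutant 1 or male WT 1). Red cells also use Car2, and the erythroid markers had sums of 4 to 14 in mutant and 24 to 71 in WT femurs, below Car2 in every library. Levels of different genes do not give the source of Car2, and the part of red cells in its values was not tested. Slc4a2, the anion exchanger that removes bicarbonate and brings in chloride, had 3289, 3215, 3202, 5092 and 3388 in mutant femurs and 3006, 3100, 2946, 2993 and 3505 in WT femurs. Apart from male mutant 1, its libraries lay close together, and the mutant females were all above the WT females by a small margin (log2 difference 0.20 ± 0.12 SE, limma, adjusted p = 0.795; 0.09 without male mutant 1). Clcn7, the chloride-proton exchanger of lysosomes and the ruffled border, had 4681, 4594, 4339, 4454 and 3451 in mutant femurs and 3299, 5657, 3523, 4325 and 4653 in WT femurs. Ostm1, the subunit that stabilizes Clcn7, had 1750, 1644, 1607, 1928 and 1665 in mutant femurs and 1404, 1788, 1658, 1829 and 1854 in WT femurs. Both genes overlapped throughout, with log2 differences of 0.02 ± 0.16 and 0.01 ± 0.09 SE (limma, adjusted p = 0.971 and 0.967), and Ostm1 had the narrowest range of any member, 1.37-fold.

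**Figure D2:**
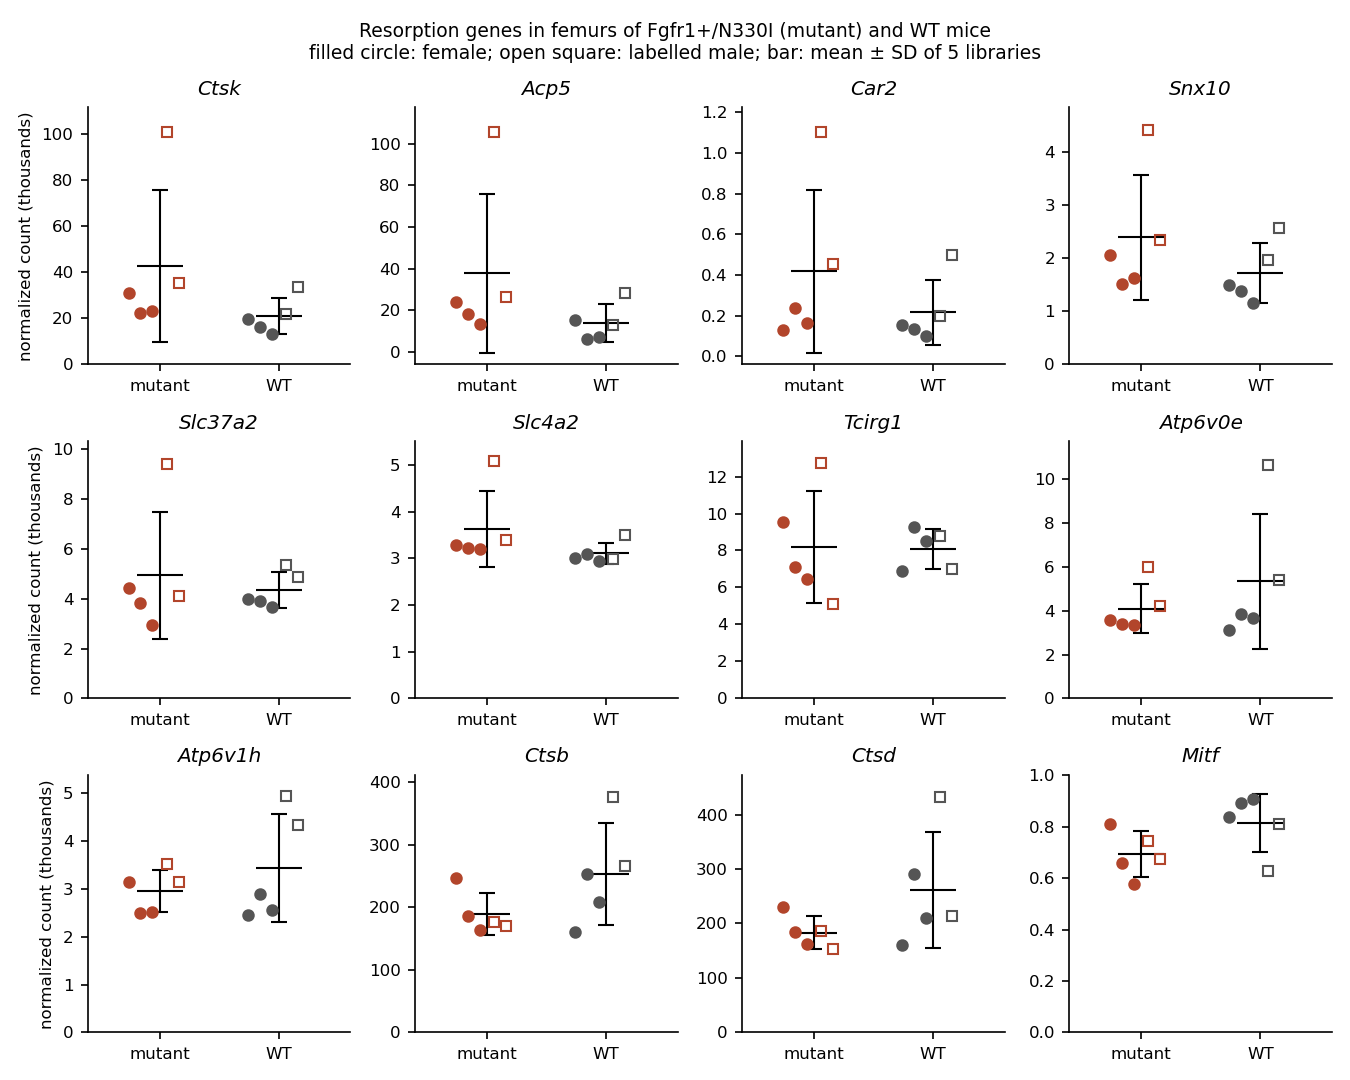
Normalized counts, scaled as on the axis labels (y axes, linear, each panel with its own range) of 12 members in 5 mutant (left) and 5 WT (right) libraries; filled circles are females, open squares are libraries labelled male, and bars give the mean ± SD. The highest square for Ctsk, Acp5, Car2, Snx10, Slc37a2, Slc4a2 and Tcirg1 is male mutant 1 (101037 for Ctsk), and the highest for Atp6v0e, Atp6v1h, Ctsb and Ctsd is male WT 1 (431835 for Ctsd).

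In the V0 sector, all 7 members had log2 differences below 0, with a median of -0.21, and none passed the test. Tcirg1, the a3 subunit that places the pump at the ruffled border, had 9554, 7092, 6466, 12751 and 5109 normalized counts in mutant femurs and 6910, 9255, 8526, 8791 and 6997 in WT femurs. The highest and the lowest of these 10 values both came from mutant libraries labelled male, so the groups overlapped fully (log2 difference -0.05 ± 0.23 SE, limma, adjusted p = 0.959; -0.26 without male mutant 1 and 0.14 without labelled male mutant 2). Atp6v0a1, the a1 subunit found in most cells, had 5769, 5806, 4729, 3082 and 4942 in mutant femurs and 5213, 5967, 6613, 4528 and 5403 in WT femurs. It was lowest in male mutant 1, the library where Tcirg1 was highest, and its log2 difference was -0.21 ± 0.15 SE (limma, adjusted p = 0.795; -0.09 without male mutant 1). Set against each other per kb of exon, Tcirg1 over Atp6v0a1 was 1.26 to 5.05 in mutant femurs and 1.57 to 2.37 in WT femurs, and only male mutant 1, at 5.05, lay above 2.37.

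Atp6v0d1, the d1 subunit that links V0 to V1, had 4814, 4655, 4242, 4854 and 5257 normalized counts in mutant femurs and 4128, 5173, 4814, 9382 and 6398 in WT femurs. Atp6v0e, the small e1 subunit, had 3561, 3417, 3336, 6016 and 4202 in mutant femurs and 3142, 3835, 3676, 10672 and 5406 in WT femurs. For both, the females of the genotypes overlapped and male WT 1 was far above every other library. The log2 differences were -0.27 ± 0.15 and -0.26 ± 0.20 SE (limma, adjusted p = 0.795 and 0.802), and without male WT 1 they were -0.13 and -0.06; Atp6v0e had -0.13 without labelled male mutant 2. Atp6v0e2, the second e subunit, was far lower, at 99 to 268 in mutant and 99 to 340 in WT femurs.

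In the V1 sector no member passed the test. Its 8 members, which include the catalytic A subunit made by Atp6v1a and the B2 subunit made by Atp6v1b2, had log2 differences of -0.22 to 0.07 with a median of -0.10, and 6 of 8 were below 0. Atp6v1h, the regulatory H subunit, had 3136, 2506, 2518, 3513 and 3152 normalized counts in mutant femurs and 2446, 2894, 2566, 4944 and 4327 in WT femurs. The labelled males separated, with mutants below WT, while the females overlapped (log2 difference over all mice -0.17 ± 0.13 SE, limma, adjusted p = 0.804; -0.09 without male WT 1 or labelled male mutant 2, and -0.25 without female mutant 1). The accessory subunits Atp6ap1 and Atp6ap2, which help to assemble the pump, had log2 differences of 0.04 ± 0.12 and 0.03 ± 0.10 SE.

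All 4 lysosomal proteases had log2 differences below 0, with a median of -0.34, and none passed the test. Ctsd, the aspartic protease cathepsin D, had 230425, 183997, 162117, 185414 and 153331 normalized counts in mutant femurs and 159801, 290430, 210254, 431835 and 212944 in WT femurs. Ctsb, the cysteine protease cathepsin B, had 246839, 186919, 163653, 177329 and 169808 in mutant femurs and 160115, 253752, 208966, 377296 and 266036 in WT femurs. For both genes male WT 1 was the highest library, female WT 1 was lower than any mutant female, and the labelled males alone did not overlap. The log2 differences were -0.44 ± 0.26 for Ctsd and -0.38 ± 0.23 SE for Ctsb (limma, adjusted p = 0.795 for each), and without male WT 1 they were -0.22 and -0.23. Under quantile normalization Ctsb had -0.08. Ctsz, cathepsin Z, had 19219, 15707, 14869, 19129 and 14799 in mutant femurs and 14035, 20619, 17852, 34522 and 19007 in WT femurs, a log2 difference of -0.28 ± 0.20 SE (limma, adjusted p = 0.795). It overlapped between the genotypes in both sexes, and leaving out male WT 1 gave -0.10. Leaving out labelled male mutant 2 gave -0.18.

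Because cathepsin K and cathepsin B are both cysteine proteases of the papain family, their ratio, which needs no scaling of the libraries, was computed after the values were seen. It does not remove the difference by gene length of male WT 1, as Ctsk has 1482 and Ctsb 4743 exon bases. The part of gene length in the ratio was not tested. Per kb of exon, Ctsk over Ctsb was 0.403, 0.383, 0.458, 1.82 and 0.67 in mutant femurs and 0.397, 0.204, 0.202, 0.185 and 0.403 in WT femurs. Male mutant 1 was highest and the labelled males did not overlap, while female mutant 2 lay below female WT 1. Ctsk over Ctsd was 0.16 to 0.718 in mutant and 0.0666 to 0.207 in WT femurs.

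The lysosomal membrane members had a median log2 difference of -0.02. They are Lamp1 and Lamp2, the main glycoproteins of that membrane, Mcoln1, its calcium channel, and Slc37a2, a sugar phosphate transporter. Slc37a2 had 4413, 3845, 2933, 9391 and 4111 normalized counts in mutant femurs and 3988, 3921, 3658, 5335 and 4852 in WT femurs. Male mutant 1 was again the highest and the other libraries overlapped (log2 difference 0.08 ± 0.21 SE, limma, adjusted p = 0.926; -0.14 without male mutant 1). Lamp1, Lamp2 and Mcoln1 had log2 differences of -0.16, 0.05 and -0.08.

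The last members encode transcription factors: TFEB, a master regulator of lysosomal genes, and MITF, its relative, which osteoclasts and pigment cells use. Tfeb had 677, 575, 599, 620 and 467 normalized counts in mutant femurs and 571, 752, 823, 617 and 627 in WT femurs, with overlap in both sexes (log2 difference -0.20 ± 0.12 SE, limma, adjusted p = 0.795). Mitf had 811, 658, 578, 745 and 673 in mutant femurs and 837, 894, 906, 626 and 809 in WT femurs. All 3 mutant females were below all 3 WT females, and the labelled males overlapped (log2 difference over all mice -0.23 ± 0.13 SE, limma, adjusted p = 0.795; -0.15 without female mutant 3; in females -0.38 ± 0.16 SE, limma, adjusted p = 1). Mast cells and melanocytes also express Mitf: of 5 mast cell markers only Kit, which other cells express too, passed the filter. It had 62, 819, 573, 425 and 1207 normalized counts in mutant femurs and 1185, 760, 741, 422 and 696 in WT femurs. Its log2 difference in females was -1.5 ± 0.86 SE (limma, adjusted p = 1), below 0 as for Mitf. The 2 genes did not match in female mutant 1, which had the lowest Kit (62) and the highest Mitf of the mutant femurs (811). The part of mast cells in the values of Mitf was not tested. The other 4 mast cell markers had at most 5 normalized counts in any library, and 5 melanocyte markers summed to 25 to 58 in mutant and 22 to 49 in WT femurs.

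TFEB and its relatives bind E-boxes with the letters CACGTG, most strongly within TCACGTGA, so promoter windows of the members were searched for both runs of letters, each of which reads the same on either strand. RefSeq windows (build GRCm38.p6, 250 bases before to 50 after a start site) were found for 29 of the 35 members. These 29 had 43 windows, and the 27025 genes used for comparison had 32851. Those genes were not limited to the 14362 tested here, and neither the number of windows nor expression was matched. CACGTG was in a window of 9 of the 29 members (31.0%), against 8.09% of 27025 genes. TCACGTGA, which contains CACGTG, was in 6 of 29 (20.7%), against 1.12% of genes. Of these 6 members, 5 were ubiquitous and 1, Clcn7, was osteoclast-enriched. The 35 members divide into 27 and 8, which includes the 6 without a window (Atp6v1b2, Atp6v1c1, Atp6v1g1, Atp6v1h, Ctsb and the osteoclast-enriched Car2). Ctsk, Acp5, Snx10, Slc4a2 and Tcirg1 held neither run in these windows, and neither did other ubiquitous members such as Ctsz, Lamp2 and Tfeb. That says only that the letters are not there. The stretches below are shown because the pump, channel and protease genes share the 8 letters near their start sites; each runs 5′ to 3′ on the gene's strand with TCACGTGA in capitals. In Lamp1, the member with most E-boxes, the capitals mark 4 copies of CACGTG instead, and in Mcoln1 a further CACGTG near the left end, outside TCACGTGA, is left in lower case.
Ctsd (chr7:142387893-142387952, minus strand, match 99 bases before the start site): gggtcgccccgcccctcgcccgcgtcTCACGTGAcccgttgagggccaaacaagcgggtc
Mcoln1 (chr8:3500447-3500506, plus strand, match 46 bases before the start site): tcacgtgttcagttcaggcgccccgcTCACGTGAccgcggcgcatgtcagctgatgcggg
Atp6v1a (chr16:44139358-44139417, minus strand, match 132 bases before the start site): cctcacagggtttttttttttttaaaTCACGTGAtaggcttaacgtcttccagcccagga
Atp6v0d1 (chr8:105566050-105566079, minus strand, match next to the start site): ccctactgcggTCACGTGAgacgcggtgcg
Atp6v0e (chr17:26676387-26676416, plus strand, match next to the start site): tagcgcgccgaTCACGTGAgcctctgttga
Clcn7 (chr17:25133386-25133415, plus strand, match next to the start site): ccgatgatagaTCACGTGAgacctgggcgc
Lamp1 (chr8:13159092-13159159, plus strand): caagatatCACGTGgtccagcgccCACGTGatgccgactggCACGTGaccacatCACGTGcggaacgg
A match describes the letters only. The 6 members with TCACGTGA had log2 differences between mutant and WT femurs of -0.44 (Ctsd), -0.27 (Atp6v0d1), -0.26 (Atp6v0e), -0.08 (Mcoln1), 0.02 (Clcn7) and 0.05 (Atp6v1a), none of which passed the test.

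Within each labelled sex, the genotype difference was tested with the spread shared by all 10 libraries. The labelled males include male mutant 2, with 7972 of Xist and 4 of Ddx3y. The WT males had 14 and 48 of Xist and 1558 and 1936 of Ddx3y. Their genotype contrast and the interaction thus do not compare genotypes within a single sex as these genes show it. In females, limma called 2 of 14362 genes (0.0139%) and no member; of 637 genes at an unadjusted p below 0.05, Mitf was the only member. Ctsk, Snx10 and Slc4a2 had every mutant female above every WT female (3 of 35 members, 8.57%, against 6.77% of all genes), and Mitf alone had every mutant female below (2.86%, against 7.16%). In labelled males, limma called 0 genes (0%), with 1193 genes at an unadjusted p below 0.05, of them 5 members: Ctsk with the higher level in mutants, and Atp6v0d1, Atp6v1h, Ctsb and Ctsl with the lower. Ctsk had both mutant libraries above both WT libraries (2.86% of members, against 13.1% of genes). Both were below for 9 members (25.7%, against 13.7% of genes): Atp6v0c, Atp6v0d1, Atp6v1h, Atp6ap1, Ctsb, Ctsd, Ctsl, Lamp1 and Mcoln1. Over all mice, no member had every mutant library above every WT library, or every one below, where 0.494% and 0.334% of genes did. The interaction of genotype with labelled sex called 0 genes (0%), with 563 genes at an unadjusted p below 0.05, of them 3 members (Atp6v0c, Atp6v1h and Ctsl).

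The labelled males rest on 2 libraries a genotype, and their result turned on male WT 2. Without it, with male WT 1 left as the lone WT male and assumed to vary like the other groups, limma called 4362 of 14266 genes (30.6%) in labelled males. Of the members, 9 were then lower in labelled mutant males (Atp6v0d1, Atp6v0e, Atp6v1f, Atp6v1g1, Atp6v1h, Ctsb, Ctsd, Ctsl and Ctsz), Car2 was higher, and 5 were called in the interaction, where 18.8% of genes were. Male WT 1 is the library that differs by gene length, and its part in these calls was not tested.

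The next comparison set the 2 classes of members against markers of the cells that could carry them. In bulk RNA, fewer cells of a type and less RNA per cell cannot be told apart. The osteoclast axis was the mean log2 level of 8 osteoclast genes that are not members (Nfatc1, Tnfrsf11a, Calcr, Oscar, Dcstamp, Ocstamp, Itgb3 and Mmp9). Over all mice, all 8 had log2 genotype differences above 0, none passing the test; in females 5 were above 0 and 3 below. None was at 0 in any library, and their summed level was 25597 to 132687 in mutant and 8209 to 37845 in WT femurs, with male mutant 1 highest and male WT 1 lowest. Over the 10 libraries, Acp5 (Pearson r = 0.92, Spearman rho = 0.93, adjusted permutation p = 0.0166 and 0.0119), Ctsk (r = 0.90, rho = 0.92, adjusted permutation p = 0.0166 and 0.0119) and Slc4a2 (r = 0.88, rho = 0.96, adjusted permutation p = 0.014 and 0.0035) followed these markers. The p-values were adjusted over 70 relations, 35 members with each of 2 marker means. Without the 2 libraries farthest from the median, male mutant 1 and male WT 1, r was 0.99 for Acp5, 0.97 for Ctsk and 0.84 for Slc4a2, and in the 6 females alone it was 0.99, 0.96 and 0.76. Snx10 and Car2 had r of 0.80 and 0.79 and missed the adjusted threshold (permutation, adjusted p = 0.0705 for each). Of the other osteoclast-enriched members, Slc37a2 had an r of 0.57, Ostm1 of 0.24, Tcirg1 of 0.18 and Clcn7 of -0.0024.

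The macrophage axis, added after the levels per library were seen, was the mean of 9 markers (Adgre1, Cd68, Csf1r, Mrc1, C1qa, C1qb, C1qc, Aif1 and Mertk); Cd163, also on that list, had 2 to 17 normalized counts in mutant and 2 to 14 in WT femurs and was left out by the filter. Their summed level was 89654 to 142974 in mutant and 100810 to 200203 in WT femurs, highest in male WT 1, and 8 of the 9 had log2 genotype differences below 0, with a median of -0.29. Ctsd (r = 0.85, rho = 0.84, adjusted permutation p = 0.0166 and 0.0443) and Ctsz (r = 0.81, rho = 0.87, adjusted permutation p = 0.0283 and 0.0314) followed this axis. Without labelled male mutant 2 and male WT 1, the 2 farthest from its median, r was 0.71 and 0.68, and in females alone 0.97 and 0.95. Tcirg1, classed as osteoclast-enriched, had r = 0.78 and rho = 0.87 with the macrophage markers (adjusted permutation p = 0.0705 and 0.0314), against r = 0.18 with the osteoclast markers. As a description across genes, the osteoclast-enriched members had a median r of 0.68 with the osteoclast and 0.15 with the macrophage markers, the ubiquitous members -0.08 and 0.47, and all other genes tested -0.03 and 0.01. These medians depended on single libraries. Without male mutant 1, the osteoclast-enriched median with the osteoclast markers was 0.22. Without male WT 1, the ubiquitous medians were 0.34 with the osteoclast and 0.18 with the macrophage markers. In females alone, the osteoclast-enriched medians lay close together, at 0.36 with the osteoclast and 0.28 with the macrophage markers. The ubiquitous medians in females were -0.06 and 0.75. As deviations from group means, the libraries gave 0.67 and 0.39 for osteoclast-enriched members, and -0.13 and 0.735 for ubiquitous members. All points of these correlations share the same 10 libraries and their scaling, and members share lysosomal function with the macrophage marker Cd68.

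**Figure D3:**
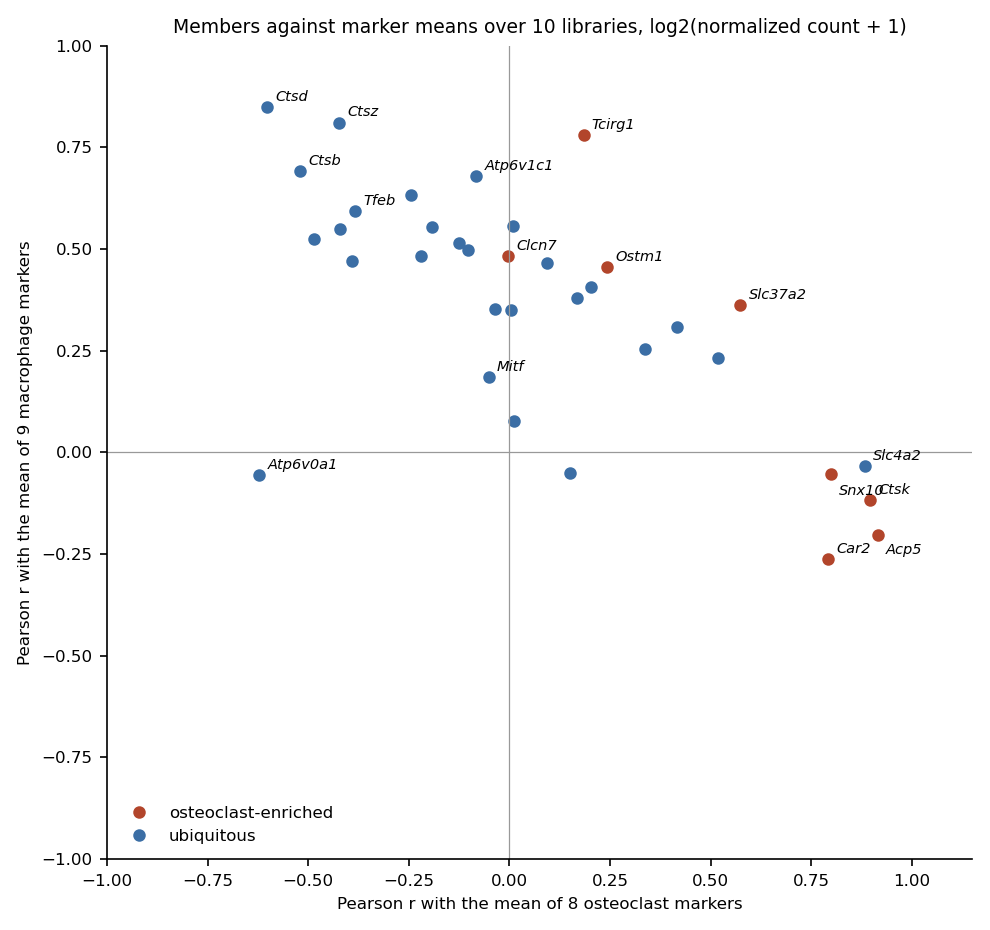
Pearson r over 10 libraries of each of the 35 members with the mean of 8 osteoclast markers (x axis) and with the mean of 9 macrophage markers (y axis); red points are osteoclast-enriched and blue points ubiquitous members. Acp5, Ctsk, Slc4a2, Snx10 and Car2 form a group at the right (x from 0.79 to 0.92, y at or below -0.03), Ctsd and Ctsz lie at the upper left, and Tcirg1 lies near the top at an x of 0.18.

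Labelled males were then set against females, with genotype as a covariate. The labels put every male in 1 series of library names and every female in the other, so the labelled sex and the series cannot be told apart. The library labelled male mutant 2, which belongs to the series of the males, had Xist and Ddx3y levels unlike the other 3 libraries labelled male, so the comparison is not one of sex as these genes show it. Here 2886 of 14362 genes (20.1%) passed the test, and 12 of 35 members did. Higher in labelled males were 11 members, Atp6ap2, Atp6v0b, Atp6v0e, Atp6v1b2, Atp6v1d, Atp6v1e1, Atp6v1g1, Atp6v1h, Car2, Ctsk and Snx10, where 9.46% of genes were higher. Only Plekhm1 was lower among the members, where 10.6% of genes were lower. In the V1 sector, 5 of 8 members were called and all 8 were above 0, with log2 differences of 0.42 to 0.72. Car2 had 1102, 453, 197 and 498 normalized counts in the labelled males (mutants, then WT) and 132, 240, 162, 154, 133 and 101 in the females. Only male WT 1, at 197, reached the range of the females (log2 difference 1.66 ± 0.35 SE, limma, adjusted p = 0.0154). Atp6v1d, a V1 stalk subunit, had 3669, 2638, 4269 and 3370 in the labelled males and 2439, 2148, 1981, 1811, 2162 and 2257 in the females, without overlap (log2 difference 0.69 ± 0.14 SE, limma, adjusted p = 0.0136). In all, 8 of 35 members (22.9%) had every labelled male library above every female library, where 10.9% of genes did: Atp6v0e, Atp6v1b2, Atp6v1d, Atp6v1e1, Atp6v1f, Atp6v1g1, Atp6v1h and Atp6ap2. The library labelled male mutant 2 was thus above all 6 females for each of these 8. No member had every labelled male library below, where 11% of genes did.

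The length of the exons moved with this difference, and its part in the calls was tested only by removing the trend. Across the 35 members, r between log10 exon bases and the labelled sex difference was -0.49, and between log10 exon bases and the deviation of male WT 1 it was -0.60, both given as descriptions across genes. Of the 9 members with under 1500 exon bases, a limit chosen after the data were seen, 8 were above their mean of 10 libraries in male WT 1 and 9 in both male mutant 1 and male WT 2, while female WT 1 and female WT 3 had none above it. With the trend on exon length removed from every library, 12 members were called, all higher in labelled males, where 16.3% of genes were called against 20.1% before, and 9 of the 12 called before were among them. Atp6v0b, Ctsk and Plekhm1 were not called, and Atp6v1a, Lamp2 and Slc4a2 were added. For Ctsk the log2 difference was then 0.78 (limma, adjusted p = 0.110), against 0.99 ± 0.29 SE before (limma, adjusted p = 0.0411), and its adjusted p was also above 0.05 without any 1 of the 6 females, male mutant 1 or male WT 2. The 5 members Atp6ap2, Atp6v1d, Atp6v1g1, Car2 and Snx10 were called in each of the 10 fits that left out 1 library and with the length trend removed. The members called, and the share of all genes called with them, were 5 and 8.59% without female WT 3, 6 and 6.76% without female WT 2, 6 and 9.22% without male mutant 1, and 7 and 8.2% without female WT 1. Leaving out labelled male mutant 2 gave 16 members, where 23.6% of genes were called.

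**Figure D4:**
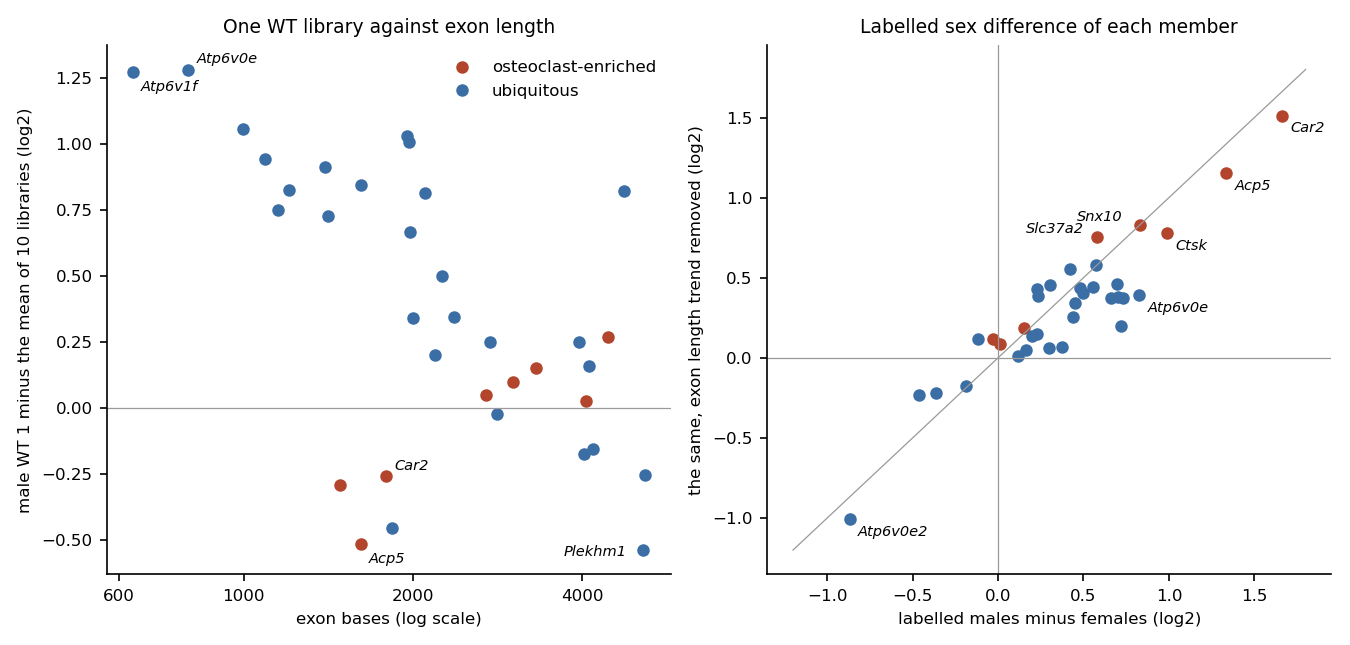
Left, log2 deviation of male WT 1 from the mean of 10 libraries (y axis) against exon bases (x axis, log scale) for the 35 members; right, the log2 difference of labelled males minus females with the exon length trend removed (y axis) against the same difference as deposited (x axis), with the line of equality. Red points are osteoclast-enriched and blue points ubiquitous members; short ubiquitous members such as Atp6v1f and Atp6v0e lie highest at the left, and Car2 (1.66) lies farthest right in the right panel.

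Other genes of the same pathways, from lists of the same kind, were tested for genotype in the same fit. Of 16 other V-ATPase genes, 12 passed the filter and 0 were called for genotype (0% of all genes were), with a median log2 difference of -0.08; the smallest p-values were those of Rogdi (-0.36 ± 0.18 SE), Rnasek (-0.21 ± 0.11) and Dmxl1 (0.36 ± 0.19). Atp6v0d2, the d2 subunit that osteoclasts use, had 4490, 3355, 2720, 5631 and 3462 normalized counts in mutant femurs and 3843, 5012, 4303, 4940 and 5356 in WT femurs. The groups overlapped, and its log2 difference, chosen for mention after its value was seen, was -0.29 ± 0.17 SE (limma, adjusted p = 0.795), on the other side of 0 from the 8 osteoclast markers. Of 35 other lysosomal genes, all passed the filter, 0 were called, 12 were above 0 and 23 below, and the median was -0.11. The smallest p-values among them were those of Ctsh (-0.69 ± 0.19 SE), a lysosomal aminopeptidase, Ctss (-0.70 ± 0.27), a protease of antigen-presenting cells, and Lipa (-0.48 ± 0.18), the acid lipase (limma, adjusted p = 0.563, 0.739 and 0.739). Of 16 genes of the ruffled border and acid transport, 14 passed the filter and 0 were called, with a median of 0.17 and 10 above 0. Clcn5, an endosomal chloride-proton exchanger, had 0.57 ± 0.19 and Car9, a membrane carbonic anhydrase, 0.87 ± 0.37 SE (limma, adjusted p = 0.682 and 0.769).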

How the data were processed

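RNA of pulverized femurs was extracted with TRIzol and sequenced after depletion of rRNA, per the labels' protocols. STAR 2.5.2b, DESeq2 1.14.1 and mm10 were used by the authors, per the submitters' processing notes; how reads were counted, and on which strand, the sources used here do not say. The score that the authors deposited is a rounded, DESeq2-normalized gene count, as the table's name states. Raw counts were not at hand, so no count test was run, and reads per library were estimated from the whole numbers that low values skip. Genes with at least 10 normalized counts in 5 or more libraries (14362 of 27179) were tested as log2(normalized count + 1) with limma 3.58.1 in R 4.3.3 (trend, robust), adjusted by Benjamini-Hochberg over all of them, at 0.05; the pseudocount understates fold changes of low genes. Groups came from titles and genotype labels, 1 mouse a library. Within-sex and interaction contrasts used 4 group means. Correlations used 100000 two-sided permutations. The functions were tested on simulated data. The members and lists were chosen with earlier results of these data known. Values per library are given for the 8 osteoclast-enriched members, both transcription factors and the 8 other members with the smallest genotype p; Atp6v1d and the ratios were chosen after their values were seen. Alternatives were other pseudocounts, filters and scalings, array weights, no sex covariate, a replicate block and left-out libraries.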

Additional observations from a re-analysis of the deposited data

Results flagged for a closer look

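In 4 of 74 groups of 5 libraries, the highest or lowest library stood apart from the other 4 by more than 0.71 of the group's range; chance flags about 1 in 20 groups. All values are log2(normalized count + 1). Among mutant femurs, Slc4a2 reached 12.31 in male mutant 1, where the next library was at 11.73, and Atp6v1e1, a V1 stalk subunit, reached 13.03 in the same library, with the next at 12.44. The mean over the 8 osteoclast-enriched members was 13.18 in male mutant 1 and 12.08 in the next mutant library. Clcn7 was lowest, at 11.75, in the library labelled male mutant 2, with the next at 12.08. Their causes were not tested.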

How the results depend on the processing

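No member was called for genotype over all mice under any alternative run. With array weights 11 genes were called, and 4 without male WT 1 and male mutant 1, an alternative chosen after seeing the data; none was a member. The signs of members near 0 were not stable. Tcirg1 had a log2 difference of 0.0165 with quantile normalization, 0.0397 with equal totals outside Rn45s, 0.0258 when female WT 3 and male WT 1 were left out, and 0.20 when labelled male mutant 2 was left out as well, where Atp6v0e had 0.0352. Clcn7 had -0.0201 with the exon length trend removed, -0.0020 with array weights and -0.0431 when female WT 3 and male WT 1 were left out. Ostm1 had -0.0094 with array weights and -0.00088 without male WT 1 and male mutant 1, and Slc37a2 -0.0277 and -0.11. Leaving out 1 library at a time, Tcirg1 ran from -0.26 to 0.14, Clcn7 from -0.0759 to 0.14, Ostm1 from -0.0439 to 0.0553 and Slc37a2 from -0.14 to 0.23. The members called ran from 5 to 16 for labelled males minus females (6.76% to 28.3% of all genes), from 0 to 10 for genotype in labelled males (0% to 30.6%) and from 0 to 5 for the interaction (0% to 18.8%). The median r of the osteoclast-enriched members with macrophage markers was -0.0468 under quantile normalization. The other named members kept their sign for genotype over all mice, but not their size. With quantile normalization Ctsb was -0.08 and Atp6v1h -0.10. With equal totals Atp6v0a1 was -0.13, Atp6v1h -0.08, Mitf -0.14 and Tfeb -0.12. With array weights Ctsk was 0.56, Snx10 0.24, Slc4a2 0.10, Atp6v0d1 -0.13, Atp6v0e -0.11, Ctsz -0.18 and Mitf -0.36, and with the length trend removed Atp6v0e was -0.13. The ubiquitous median lay between -0.08 and -0.07 in all 4 of these settings, and the osteoclast-enriched median was 0.12 with array weights. The median over all members was -0.08, but 0.0035 with equal totals, 0.02 without labelled male mutant 2, 0.01 without male WT 1, 0.00051 without it and female WT 3, and 0.07 without these 3 libraries together. With equal totals the median of all genes tested rose too, from -0.01 to 0.08. In females the median over all members was 0.05, but -0.03 without either female mutant 1 or female WT 1. The median r of ubiquitous members with osteoclast markers was -0.08, but 0.10 as rho and 0.18 without female WT 3 and male WT 1. The causes were not tested. With the replicate block, 0 genes and 0 members were called and the medians were as before. Same-numbered libraries, as deviations from their group means, correlated at -0.32, -0.29 and 0.001 in females and 0.22 in labelled males. With 2 or 3 libraries a group, these values cannot decide whether the numbers pair mice, and the labels do not say. Depth limits mainly Car2 and Atp6v0e2.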
